A study of Mus musculus with 2 samples.

Results

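Mature dendritic cells were followed in immune cells sorted from mouse livers with metastases of the mouse melanoma line B16F10. The Vsig4 KO library came from mice that lack Vsig4, a complement receptor of the immunoglobulin superfamily found on Kupffer cells (macrophages that live in the liver sinusoids), and the WT library came from mice with the gene intact. Both groups bore the same kind of tumor, and the sorted cells were DAPI-negative, CD45-positive singlets. There was 1 droplet library (10x Genomics 5′ chemistry) per genotype, and the number, age and sex of the mice behind each were not stated in the sources used here. No difference between genotypes could therefore be tested. The intervals given with each value are 95% exact intervals that cover counting error only. For UMI sums they treat each UMI as independent and leave out the spread between cells. A ratio whose interval leaves out 1 may still lie within the spread between cells or between mice.

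The cells were chosen by raw UMI counts. Barcodes had to show no fewer than 200 genes and 500 UMIs, with mitochondrial UMIs no higher than 10%. Such a barcode was taken when Fscn1, Ccl22 and Cacnb3 together had at least 3 UMIs, H2-Aa had at least 1, the Cd3 genes, Cd79a and Siglech had 0, and C1qa, C1qb and C1qc together had at most 2. This rule took 111 of the 12618 filtered cells, 55 in the Vsig4 KO library and 56 in the WT library. Because the measured counts chose the cells, the levels of these genes, and the contrast of these cells with other dendritic cells, are given as a description and were not tested.

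Dendritic cells take up antigen in tissues and, on maturation, stop sampling, display peptide on surface MHC molecules, raise costimulatory and regulatory ligands and migrate along CCL19 and CCL21 through the receptor CCR7 to lymph nodes. The same mature state, reached by both conventional lineages (cDC1, which cross-present to CD8 T cells, and cDC2, which mainly prime CD4 T cells), has been described in tumors as mature dendritic cells enriched in regulatory molecules, with PD-L1, PD-L2 and CD200 beside CD40 and IL-12. NF-kB signaling, through both the canonical route and the RelB route, drives much of this program.

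The libraries held 5746 filtered cells in Vsig4 KO and 6872 in WT, with medians of 3306 and 3073 UMIs per cell. Vsig4 itself had 3 UMIs in 3 cells of the Vsig4 KO library and 43 UMIs in 19 cells of the WT library, or 0.120 CPM (UMIs of a gene per 1000000 UMIs) against 1.51 CPM, so the check of the genotype rests on few UMIs. Among the mature dendritic cells, Vsig4 had 0 UMIs in Vsig4 KO and 1 in WT. The mature cells had a median of 5636 UMIs in Vsig4 KO, with a range of 660 to 16637, and a median of 4669.5 in WT, with a range of 836 to 19460. Their sums, 354646 UMIs in Vsig4 KO and 335905 in WT, are the depth behind the CPM values. The cDC1 used for comparison numbered 41 in Vsig4 KO and 69 in WT, the cDC2 numbered 74 in Vsig4 KO and 167 in WT, and both types were deeper, with medians between 7726 and 12718 UMIs per cell. The libraries shared 54 cell barcodes, 1 of them a mature dendritic cell of the WT library.

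The label was checked on genes outside the rule. Ccr7, the migration receptor, had a UMI in 37 of 55 mature cells in Vsig4 KO and in 44 of 56 in WT, and Il4i1, an amino acid oxidase secreted by mature dendritic cells, in 28 and 35 of them. With each cell thinned to 2000 UMIs, which left out 4 Vsig4 KO and 11 WT cells, 66.7% (52.1 to 79.2) of mature cells held Ccr7 in Vsig4 KO and 84.4% (70.5 to 93.5) in WT. The thinned share was 6.94% in Vsig4 KO cDC2 and 9.38% in WT cDC2, and 2.70% and 0.597% in the classical monocytes of Vsig4 KO and WT, cells with little Ccr7 whose median depth was 6880 and 6073 UMIs. B cells, which use Ccr7 themselves, held it in 67.6% (Vsig4 KO) and 56.9% (WT). The name CCR7-positive thus holds for most but not all cells that the rule takes: 15 cells in Vsig4 KO and 10 in WT had neither Ccr7 nor Il4i1.

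Some cells met the rule through Ccl22 alone or by few counts. Ccl22, a chemokine that draws regulatory T cells, was the only one of the 3 genes in 11 Vsig4 KO and 8 WT cells, and 3 cells of each held Ccr7. All 3 genes were found together in 23 Vsig4 KO and 19 WT cells. The median summed count was 15 in Vsig4 KO and 12 in WT, and 36 and 32 cells reached 10. Just inside the threshold, at a sum of 3, stood 3 Vsig4 KO and 6 WT cells, of which 0 and 2 held Ccr7; just outside, at a sum of 2, stood 5 and 9, of which 3 and 5 held it. A further 16 Vsig4 KO and 12 WT cells were lost only for want of an H2-Aa UMI, and 13 and 9 of those held Ccr7.

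Clustering of all filtered cells by expression, in which the rule played no part, gathered 87 of the 111 cells (78.4%) in 1 cluster of 144 cells, 73 of them from Vsig4 KO and 71 from WT. Its leading genes by fold included Zmynd15, Mreg, Mmp25 and Il12b. Of the mature cells, 41 in Vsig4 KO and 46 in WT lay in this cluster, with median depths of 4264 and 4355.5 UMIs, and 14 and 10 lay outside it, with medians of 9886.5 and 8547.5. The 14 outside cells in Vsig4 KO and the 10 in WT held little Ccr7, at 261 and 470 CPM, against 4965 and 5430 CPM for the cells inside. Genotype values are therefore given for all mature cells and, where they differ, for those in the cluster alone.

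Mature dendritic cells made up a larger share of the dendritic cells in the Vsig4 KO library, while their share of all cells was close in both. They were 0.957% (0.722 to 1.24) of all filtered cells in Vsig4 KO and 0.815% (0.616 to 1.06) in WT, a ratio of 1.17 (0.795 to 1.74). Among the 4 dendritic gates, mature cells were 55 of 340 in Vsig4 KO, or 16.2% (12.4 to 20.5), and 56 of 553 in WT, or 10.1% (7.74 to 12.9), a ratio of 1.6 (1.08 to 2.36). Set beside cDC1 and cDC2 only, they were 32.4% (25.4 to 39.9) in Vsig4 KO and 19.2% (14.8 to 24.2) in WT. The other gates were smaller in Vsig4 KO as shares of all cells: the ratio was 0.530 (0.397 to 0.701) for cDC2, 0.711 (0.471 to 1.06) for cDC1 and 0.779 (0.638 to 0.949) for plasmacytoid dendritic cells. The ratio among dendritic cells stayed between 1.41 and 1.89 under the alternatives run, and that among all cells between 1.01 and 1.30. Both were lowest when a Ccr7 UMI was required, which left 37 Vsig4 KO and 44 WT mature cells. Shares within a sort are relative, so more mature cells and fewer of the other types cannot be told apart.

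**Figure D1:**
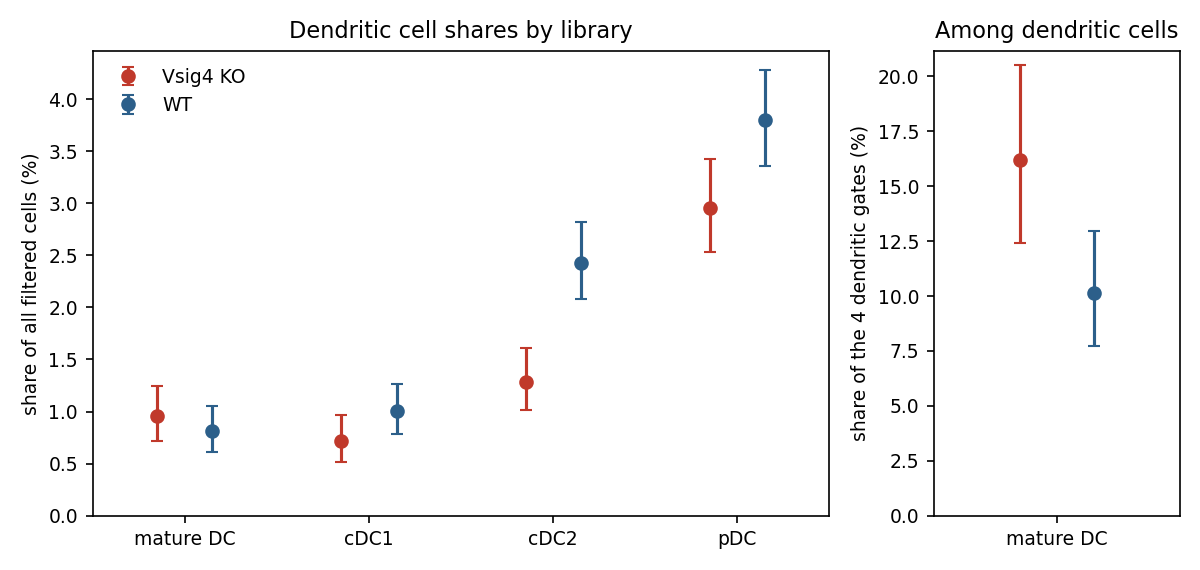
Shares of cells in percent (vertical axes) for the dendritic gates on the horizontal axes, as a share of all filtered cells (left) and of the 4 dendritic gates (right), with Vsig4 KO left of WT in each pair; points are shares and bars are 95% exact counting intervals. Mature cells are 0.957% of Vsig4 KO and 0.815% of WT cells, and 16.2% and 10.1% of the dendritic cells.

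Beside the genes of the rule, mature cells carried a broad set of genes that cDC1 and cDC2 had at low levels. A gene was counted as higher or lower when its summed CPM, with 10 added, differed at least 2-fold from cDC1 and from cDC2 in both libraries, in 4 comparisons. Of 9069 genes with at least 20 UMIs, 328 were higher in all 4 (3.62%) and 153 were lower (1.69%). The genes of the rule came out as it required: Fscn1, the actin bundler fascin, stood at 1968 CPM in Vsig4 KO and 2015 CPM in WT mature cells, against at most 1.54 CPM in any cDC1 or cDC2 sum.

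Ccr7 was at 3085 CPM in Vsig4 KO and 4079 CPM in WT mature cells. In cDC1 it had 1.89 CPM in Vsig4 KO and 20.9 CPM in WT, and in cDC2 103 CPM and 169 CPM. Of the 14 genes that stood farthest above both types, the tetraspanin Cd63 had 589 CPM in Vsig4 KO and 759 CPM in WT mature cells, and between 3.07 and 4.46 CPM in the cDC1 and cDC2 sums. Ccl5, a chemokine for T cells and monocytes, had 7436 CPM in Vsig4 KO and 5129 CPM in WT mature cells, against 197 and 103 CPM in cDC2 and 3.77 and 2.79 CPM in cDC1. All 14 held this gap in both libraries, which follows from how they were picked.

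The same set included Il12b, the p40 chain of IL-12 and IL-23, at 801 CPM in Vsig4 KO and 360 CPM in WT mature cells and at most 5.66 CPM in the cDC1 and cDC2 sums. Socs2, a feedback inhibitor of cytokine receptor signaling, had 158 CPM in Vsig4 KO and 262 CPM in WT mature cells and at most 3.72 CPM elsewhere among conventional cells. Serpinb9, an inhibitor of granzyme B, had 420 CPM in Vsig4 KO and 310 CPM in WT mature cells and at most 16.8 CPM in the others. Tbc1d4, a Rab GTPase-activating protein of vesicle traffic, had 1046 CPM in Vsig4 KO and 1212 CPM in WT mature cells and between 29 and 56.6 CPM in the others. The set was completed by Serpinb6b, Zmynd15, Mreg, Gm13546, Anxa3, Mmp25 and AW112010. Not all of them are rare outside the mature cells. Over all filtered cells other than the mature ones Ccl5 had 2464 CPM in Vsig4 KO and 2332 CPM in WT, and AW112010 577 and 668 CPM.

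The 10 genes that stood farthest below both types were Zfp36l2, Alox5ap, Cd7, Anxa1, Iqgap2, Sla, Casp6, Ccr2, Olfm1 and Ehd4. Zfp36l2, an RNA-binding protein that promotes mRNA decay, had 124 CPM in Vsig4 KO and 83.4 CPM in WT mature cells against 441 to 704 CPM in the cDC1 and cDC2 sums. Alox5ap, needed to make leukotrienes, had 197 CPM in Vsig4 KO and 208 CPM in WT mature cells against 965 to 1119 CPM. Ccr2, the receptor that brings monocytes and some dendritic cells into tissue, had 64.9 CPM in Vsig4 KO and 41.7 CPM in WT mature cells against 236 to 288 CPM. Mature cells inside the cluster held less of all of these. In Vsig4 KO and WT there, Zfp36l2 was at 37.6 and 53.2 CPM, Alox5ap at 0 and 65.5 CPM and Ccr2 at 9.39 and 0 CPM. Outside the cluster, Zfp36l2 was at 254 and 164 CPM, Alox5ap at 494 and 590 CPM and Ccr2 at 148 and 153 CPM. These 24 genes stayed past the 2-fold mark in every alternative run. They were picked from these same cells as the most extreme, so this is no separate support.

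**Figure D2:**
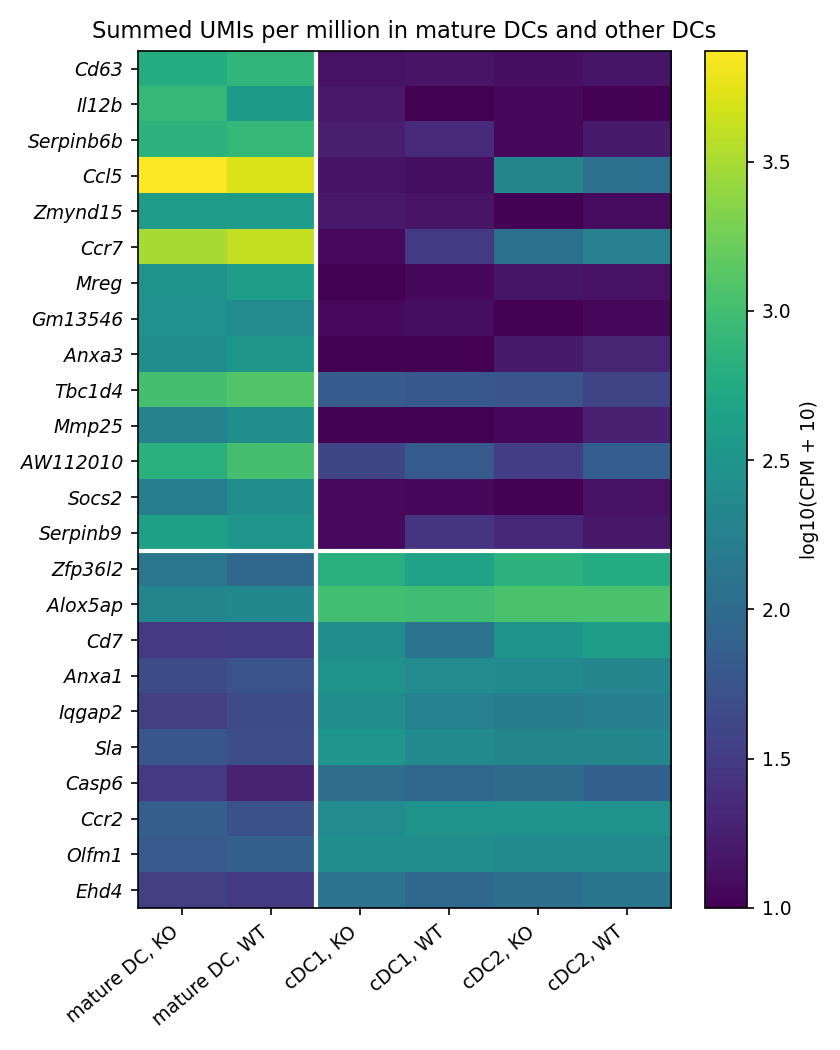
Colour shows log10(CPM + 10) of UMIs summed over the cells of each type (columns: mature dendritic cells, cDC1 and cDC2, each with Vsig4 KO left of WT) for the 14 genes farthest above and the 10 farthest below both other types (rows, split by a white line). Ccl5 and Ccr7 are the brightest rows in mature cells, at 7436 and 3085 CPM in Vsig4 KO.

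By role, the migration list had 9 of 15 tested genes higher and 1 lower in all 4 comparisons, among them the rule's own Fscn1 and Cacnb3, where all tested genes gave 3.62% and 1.69%. Marcksl1, a membrane-bound actin regulator, had 964 CPM in Vsig4 KO and 1182 CPM in WT mature cells against 9.43 and 39.1 CPM in cDC1 and 231 and 156 CPM in cDC2. The gene on the low side was the integrin chain Itgb2, at 161 CPM in Vsig4 KO and 92.3 CPM in WT mature cells against 214 to 395 CPM. In the costimulation list 5 of 12 were higher and 0 lower. Cd40, the receptor for T cell CD40 ligand, had 195 CPM in Vsig4 KO and 208 CPM in WT mature cells against 13.2 to 40.5 CPM, and Cd80 had 296 and 399 CPM against 34 to 108 CPM. Cd86 missed the mark: 369 CPM in Vsig4 KO and 393 CPM in WT mature cells stood beside 243 to 357 CPM in the other conventional cells. Cd83, which stabilises surface MHC class II and CD86, had 1472 CPM in Vsig4 KO and 1102 CPM in WT mature cells beside 575 to 629 CPM and missed it in 1 or more comparisons.

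In the regulatory list 8 of 14 were higher and 1 lower, where all tested genes gave 3.62% and 1.69%. Cd274, which encodes PD-L1, had 454 CPM in Vsig4 KO and 566 CPM in WT mature cells against 1.89 and 25.1 CPM in cDC1 and 56.9 and 49 CPM in cDC2. Cd200, the ligand of an inhibitory receptor on myeloid cells, had 251 CPM in Vsig4 KO and 191 CPM in WT mature cells against at most 6.98 CPM. Il4i1 had 307 and 366 CPM in Vsig4 KO and WT mature cells against at most 23 CPM. The gene on the low side was Lgals9, galectin-9, at 5.64 CPM in Vsig4 KO and 14.9 CPM in WT mature cells against 47.2 to 93.8 CPM. In the cytokine list 3 of 12 were higher, Il12b and the trans-presentation pair Il15 and Il15ra. Il12a, the p35 chain that IL-12 also needs, had 0 UMIs in mature cells of either library, which allows up to 3.

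The NF-kB list had 7 of 21 genes higher and 0 lower, beside 3.62% and 1.69% of all tested genes. Relb had 398 CPM in Vsig4 KO and 527 CPM in WT mature cells against 32.1 to 93.8 CPM, and Rel 1012 and 1265 CPM against 233 to 517 CPM. Traf1, Birc2 and Birc3, adaptors and ubiquitin ligases of TNF receptors, made up the count with Bcl2a1b and Bcl2a1d, whose reads may be shared with near-identical copies. Nfkb2 had 178 CPM in Vsig4 KO and 235 CPM in WT mature cells and stayed just under the mark, with a lowest log2 ratio of 0.94. In the survival list 4 of 16 were higher, Cflar among them with 251 CPM in Vsig4 KO and 223 CPM in WT mature cells against 17 to 95.3 CPM.

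Antigen presentation split by class, in a comparison where 3.62% of all tested genes were higher and 1.69% lower. In the MHC class I list 4 of 15 genes were higher and 0 lower: B2m had 3756 CPM in Vsig4 KO and 3977 CPM in WT mature cells against 853 to 1304 CPM, and Nlrc5, the class I transactivator, 113 and 226 CPM against 20 to 33.5 CPM. In the MHC class II list 0 of 12 were higher and 3 lower. H2-DMa, part of the peptide editor, had 302 CPM in Vsig4 KO and 289 CPM in WT mature cells against 781 to 906 CPM, and H2-DMb1 had 321 and 194 CPM against 663 to 921 CPM. Marchf1, the ligase that removes MHC class II from the surface of immature cells, had 0 CPM in Vsig4 KO and 5.95 CPM in WT mature cells against 46.1 to 153 CPM. H2-Ab1 was found in 38 of 55 Vsig4 KO and 38 of 56 WT mature cells, at 4523 and 5341 CPM, against 7911 to 9308 CPM. H2-Aa is part of the rule. Per cell, the class II list without H2-Aa took a median of 0.786% of UMIs in Vsig4 KO and 0.951% in WT mature cells inside the cluster. Outside the cluster the medians were 4.49% and 5.73%, beside 4.19% and 4.56% in cDC1 and 5.10% and 4.73% in cDC2. Class II genes other than H2-Aa were not kept out of the clustering.

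Other lists gave smaller counts, beside 3.62% higher and 1.69% lower over all tested genes. The interferon-gamma list had 5 of 17 higher, with Irf1, Gbp2 and Gbp5 among them, and the type I interferon list 0 of 15 in either direction. The dissociation and heat-shock list had 0 of 20 in either direction. The uptake list had 1 higher and 1 lower of 17, and the cell cycle list 0 higher and 1 lower of 15. Counts of 0 or 1 in lists of this size are not read as results about the lists. Ly75, the endocytic receptor DEC-205, was the uptake gene on the high side, at 223 CPM in Vsig4 KO and 423 CPM in WT mature cells against at most 34 CPM.

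Lineage genes were mixed within the set. Of 7 cDC1 and 6 cDC2 genes counted per cell, 9 Vsig4 KO and 5 WT mature cells had UMIs of cDC1 genes only, 10 and 9 of cDC2 genes only, 7 and 12 of both, and 29 and 30 of neither. Sirpa, a cDC2 gene that other myeloid cells share, gave the most cells, 14 in Vsig4 KO and 19 in WT. The cDC2 genes Cd209a and Clec10a had 0 UMIs in mature cells inside the cluster. All their UMIs lay in mature cells outside it, which held little Ccr7: Cd209a in 5 Vsig4 KO and 5 WT cells, Clec10a in 4 and 4. The cDC1 gene Clec9a was found on both sides, in 3 Vsig4 KO and 4 WT cells inside the cluster and in 4 and 1 outside. Irf8, the cDC1 factor, had 491 CPM in Vsig4 KO and 369 CPM in WT mature cells, between cDC1 at 1296 and 1411 CPM and cDC2 at 83 and 29.7 CPM. Il12b was found in 5 of 9 Vsig4 KO and 3 of 5 WT cells with cDC1 genes only, in 3 of 10 and 2 of 9 with cDC2 genes only, in 0 of 7 and 3 of 12 with both, and in 18 of 29 and 6 of 30 with neither. By level it was at 1331 CPM in Vsig4 KO and 281 CPM in WT cells with cDC1 genes only. In cells with cDC2 genes only it was at 1689 CPM in Vsig4 KO and 50.3 CPM in WT. These levels rested on single cells. In Vsig4 KO, 1 cell held 126 of the 133 UMIs of the cDC2 group, and 1 held 72 of the 98 of the cDC1 group. In WT the 2 highest cells, at 52 and 29 UMIs, had genes of both lineages. That group stood at 632 CPM in WT and 0 CPM in Vsig4 KO. Cells with genes of 1 lineage only are few, and a cell with no lineage UMI may be of either lineage.

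The promoters of a few genes are printed because 1 readout above, the NF-kB genes, has a known DNA motif. The sequences are from RefSeq (GRCm38.p6), 300 bases each, from 250 before to 50 after the annotated start, on the gene's strand. The κB consensus of 10 bases was searched on both strands, and matches, which may overlap each other, are in capitals. Rel (chr11:23770920-23771219, minus strand) was higher in mature cells in all 4 comparisons, and Mmp25 (chr17:23645220-23645519, minus strand) and AW112010 (chr19:11050517-11050816, minus strand) were the 2 matches among the 9 searched; Ccr7, Ccl5, Zmynd15, Anxa3 and Socs2 of the 14 genes farthest above other dendritic cells were not searched.
Rel: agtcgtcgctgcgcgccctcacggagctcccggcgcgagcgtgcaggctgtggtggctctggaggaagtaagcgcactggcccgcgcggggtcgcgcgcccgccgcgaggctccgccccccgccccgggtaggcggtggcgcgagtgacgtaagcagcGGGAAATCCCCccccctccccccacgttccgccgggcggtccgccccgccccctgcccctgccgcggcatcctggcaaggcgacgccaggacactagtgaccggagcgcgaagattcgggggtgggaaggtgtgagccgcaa
Mmp25: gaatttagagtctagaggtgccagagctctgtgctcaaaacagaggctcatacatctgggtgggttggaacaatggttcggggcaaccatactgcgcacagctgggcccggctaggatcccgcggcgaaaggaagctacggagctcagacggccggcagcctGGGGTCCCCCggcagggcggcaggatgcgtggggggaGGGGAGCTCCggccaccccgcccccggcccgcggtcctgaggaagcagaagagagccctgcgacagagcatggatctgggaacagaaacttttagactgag
AW112010: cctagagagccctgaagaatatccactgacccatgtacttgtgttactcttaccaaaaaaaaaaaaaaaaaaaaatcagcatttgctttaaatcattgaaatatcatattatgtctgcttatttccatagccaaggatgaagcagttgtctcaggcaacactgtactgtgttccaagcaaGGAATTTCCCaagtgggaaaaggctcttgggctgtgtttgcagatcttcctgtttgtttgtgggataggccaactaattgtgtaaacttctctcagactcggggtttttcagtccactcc
In Rel the matches lay about 92 bases before the start, in Mmp25 between 88 and 51, and in AW112010 at 70. A match is a description of these letters and not a bound site.

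The motif was found in 39 of the 252 higher genes with a promoter in the table (15.5%) and in 8 of the 117 lower genes (6.84%). It was in 744 of 7290 tested genes (10.2%) and in 2222 of all 27025 promoters (8.22%). In the NF-kB list it was in 7 of 18 (38.9%): Bcl3, Nfkb2, Nfkbia, Nfkbie, Rel, Tnip1 and Tnip3, of which only Rel was higher in all 4 comparisons. None of the 3 genes of the rule held a match in this window. These shares were not tested.

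The genotypes were then compared within the mature cells. Of 4206 genes with at least 20 UMIs over both libraries, 463 were at least 1.5-fold higher in Vsig4 KO on CPM plus 10 (11%) and 449 were at least 1.5-fold lower (10.7%), and the median log2 ratio of all genes was -0.01. Most of these calls sat at low counts: 27.7% of genes with 20 to 49 UMIs passed the mark in either direction, against 7.85% of those with 200 or more. The counts measure the difference between these libraries and not between the genotypes.

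Il12b was the cytokine gene among those farthest above a ratio of 1. It had 284 UMIs in 26 of 55 Vsig4 KO cells and 121 UMIs in 14 of 56 WT cells, or 801 CPM against 360 CPM, a ratio of 2.22 (1.79 to 2.77). The counts rested on few cells: the highest held 126 and 72 UMIs in Vsig4 KO and 52 and 29 in WT, while the median over cells with a UMI was 2 in Vsig4 KO and 4 in WT. Without the single highest cell of each library the ratio was 2.13. Thinned to 2000 UMIs, 18 of 51 Vsig4 KO cells (35.3%, 22.4 to 49.9) and 8 of 45 WT cells (17.8%, 8 to 32.1) held a UMI, intervals that overlap. In B cells, which should lack it, the thinned share was 0.0598% in Vsig4 KO and 0.0730% in WT, at median depths of 2812 and 2437.5 UMIs. In the cluster the ratio was 3.23 (2.54 to 4.15), and over all alternatives it lay between 1.81 and 3.23. The rest of the cells, at 7.4 CPM in Vsig4 KO and 4.4 CPM in WT, had a ratio of 1.68.

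Tnfsf9, the ligand of the costimulatory receptor 4-1BB, had 124 UMIs in 18 Vsig4 KO cells and 52 UMIs in 16 WT cells, a ratio of 2.26 (1.62 to 3.19), and 2.05 to 5.02 over the alternatives. The cDC2 showed a like ratio of 2.59. Il1r2, the decoy receptor for IL-1, had 148 UMIs in 12 Vsig4 KO cells and 30 UMIs in 13 WT cells, a ratio of 4.67 (3.14 to 7.17). One Vsig4 KO cell held 53 of them, 5 Vsig4 KO cells and 0 WT cells reached 10, and in the cluster the ratio was 2.58 (1.27 to 5.6). Serpina3g, a protease inhibitor of a family of close copies, had 59 UMIs in 12 Vsig4 KO cells and 5 UMIs in 4 WT cells, a ratio of 11.2 (4.53 to 35.7), 5.51 in the cluster and 3.78 to 11.2 over the alternatives.

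The other genes farthest above a ratio of 1 were Gm42031, D130009I18Rik, Cxcl9, Hilpda, Odc1, Nr4a1, H1f2 and Socs3, with ratios from 2.25 to 6.05. Gm42031 and D130009I18Rik were also higher in the rest of the Vsig4 KO library, with ratios of 3.01 and 2.24 over all filtered cells other than the mature ones. Cxcl9, a chemokine for CXCR3-bearing T cells, had 95 UMIs in 6 Vsig4 KO cells and 33 UMIs in 2 WT cells, and without the cells of highest doublet score its ratio was 0.719. H1f2 had a ratio of 0.785 in the cluster, the immediate early gene Nr4a1 one of 1.18, Hilpda one of 1.4 (0.529 to 3.83) and Odc1 one of 4.45 (2 to 11.2).

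Among the genes farthest below 1, Csf2rb, the shared receptor chain for GM-CSF, IL-3 and IL-5, had 50 UMIs in 24 Vsig4 KO cells and 125 UMIs in 38 WT cells. Its ratio was 0.379 (0.267 to 0.530), 0.462 in the cluster and 0.316 to 0.595 over the alternatives, with a close copy, Csf2rb2, that may share its reads. Over the other cells the ratio was 0.662. Csrp1, a LIM protein of the actin cytoskeleton, had 72 UMIs in 34 Vsig4 KO cells and 176 UMIs in 43 WT cells, a ratio of 0.387 (0.290 to 0.512) that moved only between 0.370 and 0.481. Id3, an inhibitor of helix-loop-helix factors, had 4 UMIs in 3 Vsig4 KO cells and 55 UMIs in 13 WT cells, a ratio of 0.0689 (0.0181 to 0.187) that spanned 0.0418 to 0.467 over the alternatives. Hspa1a, which shares sequence with Hspa1b, had 113 UMIs in Vsig4 KO and 314 in WT, a ratio of 0.341, and was also low over other Vsig4 KO cells at 0.603. The remaining genes, 4930523C07Rik, Ankrd33b, Ifi209, Enox2, Slc6a6, Gm48099, Kif21b and Specc1, had ratios from 0.320 to 0.481.

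**Figure D3:**
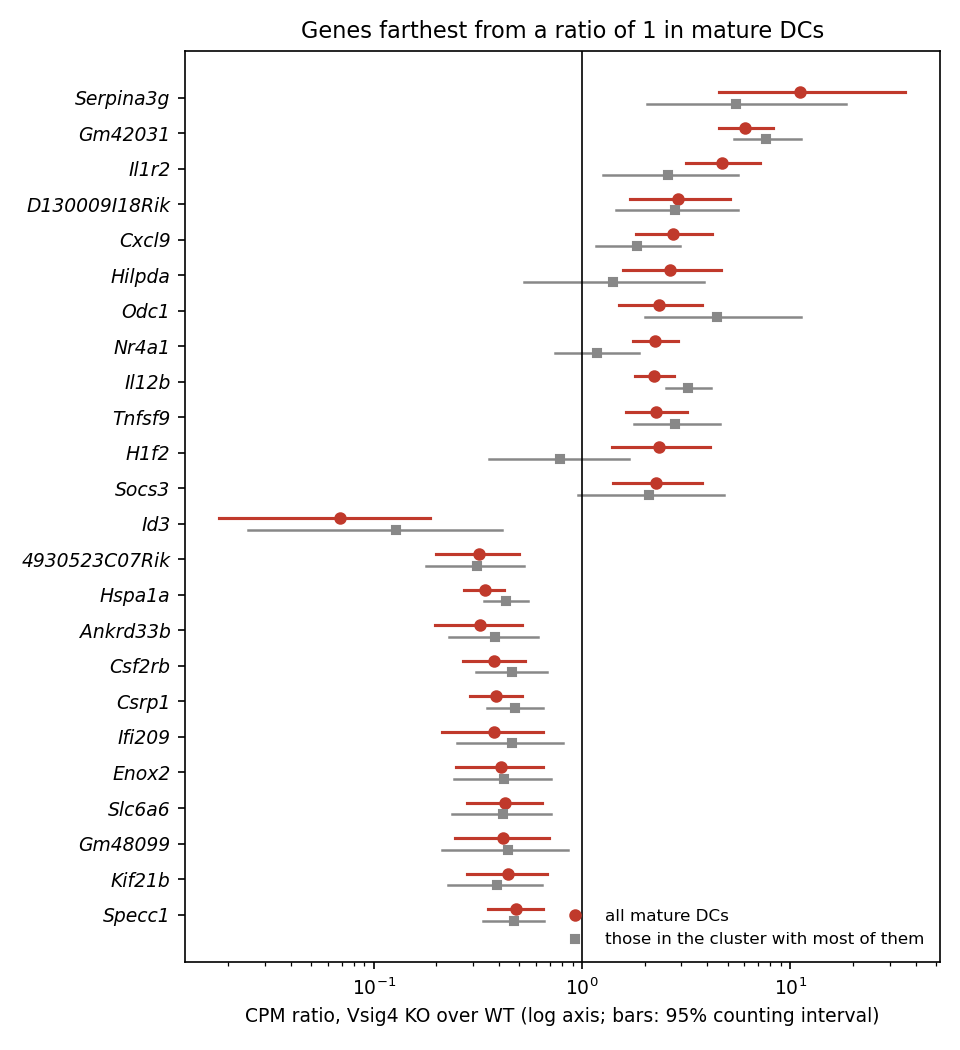
CPM ratio of Vsig4 KO over WT in mature dendritic cells (horizontal log axis) for the 12 genes farthest above and the 12 farthest below 1 by the naming rule; red circles are all mature cells, grey squares those in the cluster that holds most of them, and bars are 95% counting intervals. Il12b lies at 2.22 and 3.23, Csf2rb at 0.379 and 0.462, and H1f2 changes side, at 2.35 and 0.785.

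For the genes that define the state, the ratios were nearer to 1 and depended on which cells were kept. Ccr7 had 1094 UMIs in Vsig4 KO and 1370 in WT, a ratio of 0.756 (0.698 to 0.820). The ratio was 0.914 (0.843 to 0.992) in the cluster and 0.990 (0.913 to 1.07) among cells with a Ccr7 UMI. That last value leaves out the 18 Vsig4 KO and 12 WT cells without Ccr7, so it compares levels only among cells that hold the gene. Ccr7 was also not among the genes kept out of the clustering. Cd274 had a ratio of 0.803 (0.647 to 0.995), 0.891 (0.705 to 1.13) in the cluster and 1.001 among cells with a Ccr7 UMI. Cells with 10 or more Cd274 UMIs numbered 7 in each library. Il4i1 had a ratio of 0.839 (0.643 to 1.1), Cd40 0.934 (0.660 to 1.32), Cd86 0.940 (0.732 to 1.21), Cd80 0.742 (0.569 to 0.965) and Cd83 1.34 (1.17 to 1.53). In the cluster Il4i1 was at 1.04 (0.773 to 1.39), Cd40 at 1.15 (0.789 to 1.67) and Cd86 at 0.765 (0.532 to 1.09). There Cd80 was at 0.758 (0.552 to 1.03) and Cd83 at 1.26 (1.06 to 1.5). The counts of the rule's own genes gave 0.977 for Fscn1, 1.21 for Ccl22 and 0.653 for Cacnb3.

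Pdcd1lg2, which encodes PD-L2, gave a lower ratio than Cd274, a difference that was not tested. It had 10 UMIs in 6 Vsig4 KO cells and 31 UMIs in 15 WT cells, or 28.2 CPM against 92.3 CPM, a ratio of 0.306 (0.134 to 0.639). In the cluster the ratio was 0.410 (0.178 to 0.870), and over the alternatives it lay between 0.279 and 0.427. Ccl17, a ligand of CCR4, had 45.1 CPM in 9 Vsig4 KO cells and 95.3 CPM in 16 WT cells, a ratio of 0.474 (0.243 to 0.889), with 20 CPM in Vsig4 KO and 146 CPM in WT cDC2. Ly75 had a ratio of 0.527 (0.395 to 0.699), and Socs2 0.603 (0.423 to 0.852), but Socs2 was at 0.739 (0.519 to 1.05) in the cluster. Cd200 was on the other side, at 1.32 (0.945 to 1.85), and 1.54 (1.09 to 2.17) in the cluster.

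**Figure D4:**
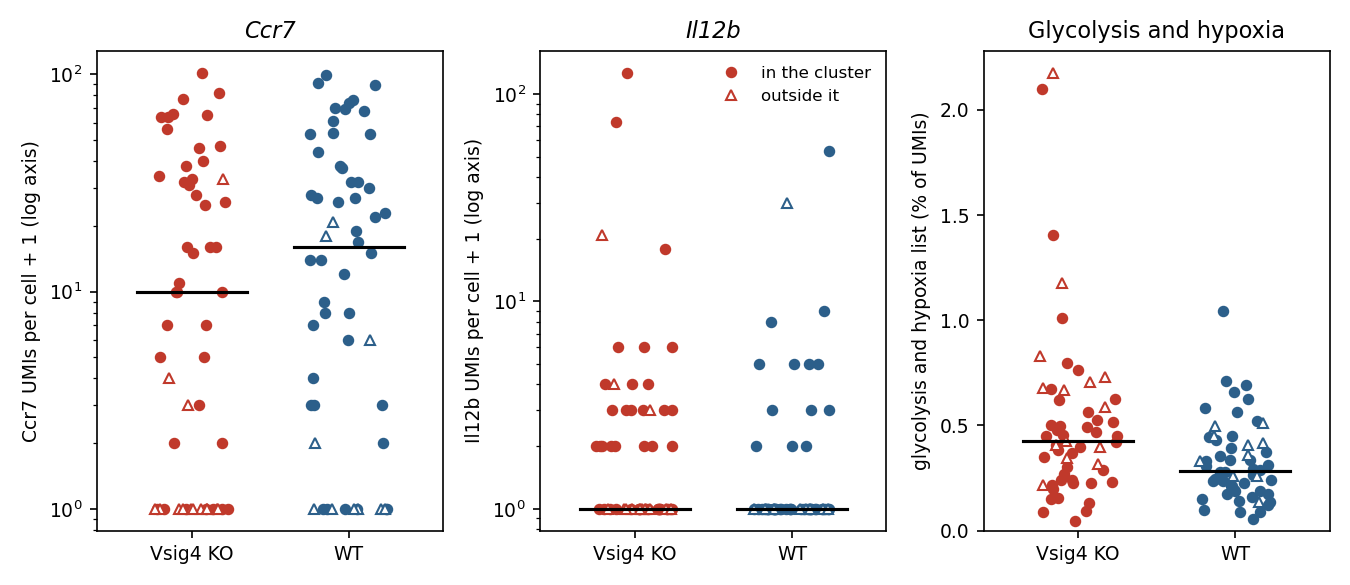
Values of single mature dendritic cells, Vsig4 KO left of WT in each panel, filled or open by whether the cell lies in the cluster that holds most of them; vertical axes are UMIs per cell plus 1 on a log axis, or the percent of a cell's UMIs from glycolysis and hypoxia genes. Black lines are medians. A single Vsig4 KO cell reaches 126 Il12b UMIs and a single WT cell 52, and the glycolysis medians are 0.426% and 0.283%.

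The list of glycolysis and hypoxia genes had the highest median among the lists of dendritic cell functions. Its median log2 ratio was 0.69 over 17 tested genes, with 10 higher and 1 lower in Vsig4 KO and 16 above 0, where all genes gave 11% higher, 10.7% lower and a median of -0.01. Eno1 (enolase) had 488 CPM in Vsig4 KO and 250 CPM in WT, a ratio of 1.95 (1.49 to 2.56). Gpi1 had a ratio of 1.87 (1.31 to 2.71), Tpi1 2.14 (1.42 to 3.28), Pgk1 1.78 (1.28 to 2.5) and Aldoa 1.63 (1.31 to 2.05), all enzymes of glycolysis. Vegfa was the gene on the low side, at 25.4 CPM in Vsig4 KO and 56.6 CPM in WT. In cDC1 the list's median was 0.04, with 0 of 16 genes higher or lower, where 10.1% and 4.88% of all genes were. In cDC2 it was 0.08, with 0 of 19 higher or lower, where 3.09% and 5.69% of all genes were. The summed level of the list was 5651 CPM in Vsig4 KO and 3870 CPM in WT mature cells, beside 4745 and 4272 CPM in cDC1 and 6087 and 5468 CPM in cDC2, so the WT mature cells had the lowest sum.

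Per cell, these genes took a median of 0.426% of UMIs in Vsig4 KO mature cells and 0.283% in WT mature cells, with ranges that overlapped. Outside the cluster the medians were 0.627% in Vsig4 KO and 0.384% in WT, and Eno1 had 691 CPM against 273 CPM. Inside the cluster the medians were 0.409% in Vsig4 KO and 0.270% in WT, the list's median log2 ratio was 0.35, and 2 of 12 tested genes were higher and 0 lower, where 8.83% and 14.8% of all 2921 tested genes were. Among cells with a Ccr7 UMI the median log2 ratio was 0.30, with 2 of 12 higher and 1 lower, against 8.37% and 14.3% of 3238 genes. Gpi1 kept a ratio of 1.90 (1.17 to 3.12) in the cluster, while Tpi1 was at 1.23 (0.715 to 2.11).

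The chemokine list leaned the other way in the sums, with a median log2 ratio of -0.59. In it 1 of 11 genes was higher and 6 were lower, where 11% and 10.7% of all genes were. Cxcl16 had a ratio of 0.658 (0.533 to 0.812), close to the 0.676 of other cells. Ccl5 ran against the list at 1.45 (1.36 to 1.54), and 1.67 in the cluster. In the cluster the list's median was -0.88, with 2 of 10 higher and 6 lower, where 8.83% and 14.8% of all genes were. Among cells with a Ccr7 UMI it was -0.61, with 4 of 10 higher and 5 lower, where 8.37% and 14.3% were. The median turned to 0.13 when the rule was applied to thinned cells. It was 0.032 when cells with a UMI of the B cell, NK cell, neutrophil, basophil or plasma cell genes named at the end were left out. Its direction thus depended on the cells kept.

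**Figure D5:**
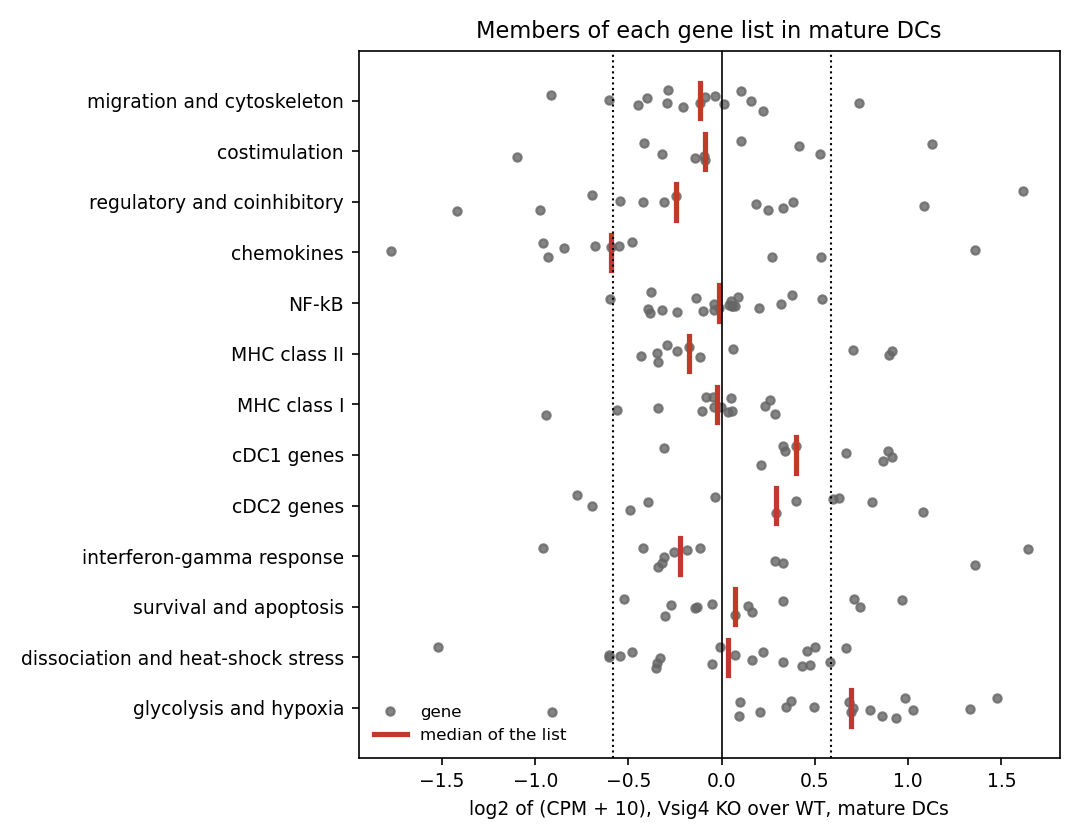
Log2 ratio of CPM + 10, Vsig4 KO over WT, in mature dendritic cells (horizontal axis) for the tested genes of each list (rows); grey points are genes, red bars list medians, and dotted lines the 1.5-fold marks. The glycolysis and hypoxia list lies highest, at a median of 0.69, and the chemokine list lowest, at -0.59.

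The remaining lists lay nearer to 0, in sums where 11% of all genes were higher and 10.7% lower. The NF-kB list had a median of -0.02 with 0 of 21 higher and 1 lower, the MHC class I list -0.02 with 0 of 14 higher and 1 lower, and the costimulation list -0.09 with 1 of 10 in each direction. The regulatory list had a median of -0.25 with 2 of 13 higher and 3 lower, and the migration list -0.12 with 1 of 15 higher and 2 lower. The MHC class II list had a median of -0.18 with 3 of 11 higher and 0 lower, but -0.49 with 0 of 10 higher and 4 lower in the cluster, where 8.83% of all genes were higher and 14.8% lower. The cDC1 and cDC2 gene lists had medians of 0.40, with 4 of 9 higher and 0 lower, and 0.29, with 4 of 11 higher and 2 lower. In the cluster the cDC1 genes had 0.28 with 1 of 4 higher and 0 lower, and the cDC2 genes turned to -0.51 with 0 of 4 higher and 2 lower. Of the mature cells outside the cluster, 8 in Vsig4 KO and 5 in WT lay in the cluster that held most cDC2. The interferon-gamma list had -0.22 with 2 of 12 higher and 1 lower, survival 0.07 with 3 of 13 higher and 0 lower, and dissociation and heat shock 0.03 with 1 of 20 higher and 3 lower.

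Markers of other cell types differed between the sums. The 8 NK cell markers summed to 623 CPM in 12 Vsig4 KO mature cells and to 56.6 CPM in 10 WT mature cells, and took at most 1.35% of a cell's UMIs in Vsig4 KO and 0.0317% in WT; Ncr1, Nkg7, Klrb1c, Gzma, Gzmb, Prf1 and Eomes were at 0 in WT. The 12 macrophage markers summed to 124 CPM in Vsig4 KO and 372 CPM in WT, the 8 neutrophil markers to 2.82 and 86.3 CPM, and the 10 monocyte markers to 1196 and 1006 CPM. Basophil and erythroid genes were at 0 in both. With every cell that held a UMI of Ms4a1, Nkg7, Ncr1, S100a8, Ms4a2 or Jchain left out, 49 Vsig4 KO and 52 WT cells remained, and the ratio was 10.6 for Serpina3g, 5.82 for Il1r2 and 2.28 for Il12b. Of the named gene ratios, those that left their own counting interval were Odc1 at 1.46, Ccl22 at 1.53 and Ccr7 at 0.835.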

How the data were processed

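The deposited files hold whole-number UMI counts per gene and barcode, 1 matrix per library, with 5799 barcodes in Vsig4 KO and 6929 in WT. Reads were processed with Cell Ranger 7.1.0 against mm10, per the submitters' processing notes. The count filters of the deposited matrices are not given in the sources used here.

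Cells were filtered and gated on raw counts as described with the results. The cDC1 gate asked for Xcr1 and Clec9a together at 2 or more and H2-Aa at 1 or more. The cDC2 gate asked for Cd209a, Clec10a and Mgl2 together at 2 or more, H2-Aa at 5 or more and no Xcr1 or Clec9a. It also asked for Fcgr1 and Adgre1 together at 1 or less. The plasmacytoid gate asked for Siglech at 2 or more, and the cDC1 and cDC2 gates for none. All of these gates left out mature cells, cells with a Cd3 or Cd79a UMI, and cells with C1qa, C1qb and C1qc together above 2. Counts were summed per gate and library and scaled to 1000000 UMIs (CPM). Ratios are Vsig4 KO over WT, called at 1.5-fold (genotype) or 2-fold (against other dendritic cells) on CPM plus 10, for genes with at least 20 UMIs. Poisson, conditional binomial and Clopper-Pearson intervals are exact, at 95%, and cover counting error only, since cells are not replicates. No p-value was computed. The script that makes the fold calls was checked on simulated counts, which carry no spread between cells or between mice.

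Genes were named by rule: the 14 and 10 genes farthest above and below both cDC1 and cDC2 in their least extreme comparison, the 12 genes farthest above and the 12 farthest below 1 between genotypes (at least 50 UMIs), and genes listed by role. The members and lists were chosen with earlier results of these data known. Clec7a, Cxcl11, Mx1 and Mx2 were not analysed here.

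Clustering used scanpy 1.11.5 (30 components, 15 neighbours, Leiden resolution 1.5). Doublets were not removed: scrublet's own threshold marked 5 Vsig4 KO and 0 WT cells, so it did not work, and leaving out the highest scores (4 Vsig4 KO and 2 WT mature cells) is an alternative. Other alternatives moved the gate, depth, scaling, pseudocount and filters. Python 3.11.15, numpy 2.4.6, scipy 1.17.1 and pandas 2.3.3 were used.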

Additional observations from a re-analysis of the deposited data

Results flagged for a closer look

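Some genes moved one way between the libraries in mature dendritic cells and the other way in another dendritic type. None of these differences was tested, since each genotype has 1 library.

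Against cDC1, Serpina3g had a Vsig4 KO over WT ratio of 11.2 in mature cells and 0.0759 in cDC1, and Cxcl9 one of 2.73 and 0.0184. Without the cells of highest doublet score, Cxcl9 was at 0.719 in mature cells. Serpinb9, the granzyme B inhibitor, had 1.36 (1.05 to 1.76) in mature cells and 0.113 (0.00263 to 0.761) in cDC1, where its counts were low. On thinned cells Serpinb9 was at 0.920 in mature cells. Cxcr4, a chemokine receptor, had 0.500 in mature cells and 2 in cDC1, and the chaperone Calr had 0.669 and 1.25. Ccl3 had 0.264 (0.161 to 0.420) in mature cells and 1.53 (1.16 to 2.01) in cDC1. Few mature cells held Ccl3: 0 in Vsig4 KO and 2 in WT inside the cluster, and 5 and 2 outside it. Its ratio in mature cells turned to 2.57 on thinned cells.

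Against cDC2, Hilpda, a lipid droplet protein of hypoxia, had 2.65 in mature cells and 0.551 in cDC2, and Odc1, the first enzyme of polyamine synthesis, 2.35 and 0.624. In the cluster Hilpda was at 1.4 (0.529 to 3.83) and Odc1 at 4.45, and Odc1 was at 1.46 without cells of other lineages. Tpi1 had 2.14 in mature cells and 0.750 in cDC2, and the mitochondrial chaperone Hspe1 1.6 and 0.686. Fcgr2b, the inhibitory Fc receptor, had 2.01 in mature cells and 0.761 in cDC2, but 0 (0 against 6 UMIs) for mature cells in the cluster and 0.901 with Ccr7 required. Relb had 0.755 in mature cells and 1.5 in cDC2. For mature cells in the cluster Relb was at 0.834 (0.652 to 1.07), and with Ccr7 required at 0.872 (0.685 to 1.11), intervals that hold 1.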

How the results depend on the processing

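No paired analysis was possible because each genotype has 1 library, and no replicate could be left out for the same reason. Equal weight per cell, the gated cells inside the cluster, and no H2-Aa minimum were chosen after seeing the data. Both share ratios were above 1 under all alternatives run, but the interval of the ratio among all cells held 1. Both were lowest with Ccr7 required, at 1.01 among all cells and 1.41 among dendritic cells. The count of genes higher than in cDC1 and cDC2 lay between 277 and 480. The count of lower genes, 153, was 89 at a gate minimum of 2 UMIs, 261 at 5, 368 with Ccr7 required, 337 on thinned cells, 431 for all cells of the cluster, 494 at a pseudocount of 1, 275 with equal weight per cell and 597 for gated cells in the cluster. The 463 genes higher in Vsig4 KO became 271 with Ccr7 required, 258 for gated cells in the cluster, 1719 with no UMI minimum and 134 at 50 UMIs, and the 449 lower ones 1420 and 163 under the last 2 settings, where the number of genes tested changed. Gene ratios fell on the other side of 1 in 54 of 768 gene and setting pairs, 17 of them for genes whose own interval left out 1 (named next) and 37 for genes whose interval held 1, such as Il4i1, Cd40 and Cd86. List medians changed sign in 65 of 332 pairs, those of the cDC2 genes among them. H1f2 turned to 0.885 with Ccr7 required, 0.797 on thinned cells, 0.941 for all cells of the cluster and 0.785 for gated cells in it. Cd274 went to 1.001 with Ccr7 required and 1.06 with equal weight. Fcgr2b went to 0.901 with Ccr7 required, 0.108 for all cells of the cluster and 0 for gated cells in it. Cxcl9 was at 0.719 without the highest doublet scores, and Serpinb9 at 0.920 and Ccl3 at 2.57 on thinned cells. For all cells of the cluster Ccr7 was at 1.05, Aldh1a2 at 1.03 and Cacnb3 at 1.02, and with no H2-Aa minimum Aldh1a2 was at 1.38 and Ccl22 at 0.994. The chemokine median turned to 0.13 on thinned cells and 0.032 without cells of other lineages, and the glycolysis and hypoxia median stayed between 0.23 and 0.88. The cause of these shifts was not tested. Depth limits genes under 50 UMIs most.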
